A study of Mus musculus with 4 samples.

Results

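The genes described here are 10 components of the Notch signalling pathway, taken by name from 23444 gene symbols in a table of RNA levels in mouse lung fibroblasts. They comprise 4 receptors (Notch1, Notch2, Notch3 and Notch4), 3 ligands (Jag1, Jag2 and Dll4) and 3 transcriptional repressors that Notch signalling induces (Hes1, Hey1 and Heyl). All 10 were found, each as a single entry. The cells were sorted as Pdgfra-positive fibroblasts, that is, for the alpha receptor of platelet-derived growth factor, from whole lungs of wild-type (WT) C57BL6 mice. The 4 groups were lungs of embryos at day 16.5 (E16.5) and day 18.5 (E18.5) and of pups and young mice on day 7 (P7) and day 28 (P28) after birth, and the series follows these cells through lung development. Each group was 1 library, and the labels do not give the number of animals behind it, so animal-to-animal spread is unknown, and the differences below set library against library with no test.

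Notch receptors are single-pass membrane proteins that are activated by ligands of the Jagged and Delta-like families on a neighbouring cell. Ligand binding exposes the receptor to an ADAM protease and then to gamma-secretase, and the freed intracellular part enters the nucleus, binds the DNA-binding protein RBPJ and turns on genes such as those of the HES and HEY repressors. In the lung, Notch signalling is known for setting airway cell fates, for the growth and arterial identity of vessels, and for the mural cells and myofibroblasts of the developing alveolus. Several of these genes are best known from endothelium, and Notch4 and Dll4 in particular are regarded as largely endothelial.

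As deposited, Notch4, Dll4 and Jag2 had the most alike courses over the 4 ages among the 8 members whose profiles were compared. Their promoters are shown for that reason. Each is the RefSeq window of 300 bases on GRCm38.p6, from 250 bases before to 50 bases after the annotated start, read in the direction of the gene. Capitals mark the letters AGGAAG, which hold the core bound by ETS factors, on either strand. The core GGAA alone was not searched, and it also stands, unmarked, in the Dll4 window. The Notch4 window lies at chr17:34564045-34564344 on the plus strand, the Dll4 window at chr2:119325534-119325833 on the plus strand and the Jag2 window at chr12:112929446-112929745 on the minus strand.
Notch4: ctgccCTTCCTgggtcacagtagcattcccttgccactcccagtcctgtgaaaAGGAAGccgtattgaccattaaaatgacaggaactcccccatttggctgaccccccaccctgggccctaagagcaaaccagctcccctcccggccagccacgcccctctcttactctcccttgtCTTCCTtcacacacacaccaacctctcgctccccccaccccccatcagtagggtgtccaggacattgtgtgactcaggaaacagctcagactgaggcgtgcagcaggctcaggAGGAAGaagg
Dll4: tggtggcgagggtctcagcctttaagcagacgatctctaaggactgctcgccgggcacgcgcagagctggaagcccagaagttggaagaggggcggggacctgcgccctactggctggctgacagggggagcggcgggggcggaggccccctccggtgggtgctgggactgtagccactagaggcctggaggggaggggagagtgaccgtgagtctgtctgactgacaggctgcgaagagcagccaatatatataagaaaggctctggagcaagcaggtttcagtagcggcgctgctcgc
Jag2: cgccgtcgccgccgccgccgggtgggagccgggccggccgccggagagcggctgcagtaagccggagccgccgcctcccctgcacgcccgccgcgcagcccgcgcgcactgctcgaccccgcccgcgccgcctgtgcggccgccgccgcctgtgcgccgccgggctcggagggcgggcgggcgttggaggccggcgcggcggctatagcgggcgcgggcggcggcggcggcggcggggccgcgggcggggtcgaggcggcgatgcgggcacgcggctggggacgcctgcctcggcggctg
The letters AGGAAG occurred 4 times in the Notch4 window and in none of the other 6 windows available, which were those of Dll4, Jag1, Jag2, Notch1, Notch2 and Notch3. Of 32851 promoter windows of the same length, 35.4% held them. The RBPJ core TGGGAA was in 0 of the 7 windows, against 25.6% of all windows, and the E-box CACGTG in 0 of 7, against 7.15%. All 3 motifs were searched on both strands, and none of them contains another. A match or its absence describes the letters of these windows. The G and C content was 58.3% for Notch4, 63.7% for Dll4 and 86.0% for Jag2, and the median of all windows was 52.7%. Windows for Hes1, Hey1 and Heyl are not shown.

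On GRCm38 with the GENCODE M21 annotation, Notch1 lies on chromosome 2 (26457903 to 26516663, minus strand), Notch2 on chromosome 3 (98013527 to 98150361, plus strand), and Notch3 and Notch4 on chromosome 17 (32120820 to 32166852, minus strand, and 34564268 to 34588503, plus strand). Jag1 lies on chromosome 2 (137081456 to 137116644, minus strand), Jag2 on chromosome 12 (112907819 to 112929776, minus strand) and Dll4 on chromosome 2 (119325784 to 119335962, plus strand). Hes1 lies on chromosome 16 (30064384 to 30067796, plus strand), Hey1 on chromosome 3 (8663359 to 8667256, minus strand) and Heyl on chromosome 4 (123233556 to 123249875, plus strand). Annotated genes on the opposite strand overlap Notch1, Notch3, Notch4 and Dll4, and the sources used here do not say whether the counting used strand. Of these overlapping genes Gm14207, which overlaps the first part of Dll4 on the opposite strand, is listed in the table. It was at 0 FPKM in the E16.5 library, 0.106 in E18.5, 0.748 in P7 and 0.198 in P28. Its reads and those of the first part of Dll4 cannot be told apart without strand.

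Levels are FPKM, fragments normalised to transcript length and to the mapped fragments of the library, and can therefore be compared between genes. Depth and the precision of low values are unknown, because FPKM carries no totals of reads. The sort gene Pdgfra was at 88.7 FPKM or more in every library, and all 9 general fibroblast markers were at 1 FPKM or more in each. The scale of the E18.5 library differed from the rest: 94.3% of the 7930 genes that reached 1 FPKM everywhere had a lower value there than their average over E16.5, P7 and P28, by a median log2 ratio of -1.12. Each value is therefore given as deposited and, where named as scaled, after division by a median-ratio factor (1.15 for E16.5, 0.581 for E18.5, 1.38 for P7 and 1.08 for P28).

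Among the receptors, Notch2 was the most abundant in every library except P7, where Notch1 was. Notch1 and Notch2 differed less between ages than Notch4, which as deposited was under 1 FPKM in both prenatal libraries. Notch1, which has broad roles in cell fate and in endothelium, was at 5.87 FPKM in the E16.5 library, 2.70 in E18.5, 13.8 in P7 and 6.87 in P28. P7 stood highest, and the scaled values were 5.11, 4.65, 9.99 and 6.37 FPKM in the same order of age, so that E16.5 and E18.5 lay close together. These are bulk libraries, in which fewer cells of a type and less RNA per cell cannot be told apart.

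Notch2, the receptor whose loss of function in mice and people affects vessels, kidney and bile ducts, was at 20.1 FPKM in the E16.5 library, 5.80 in E18.5, 9.48 in P7 and 14.4 in P28. The scaled values were 17.6, 9.98, 6.88 and 13.4 FPKM. E16.5 was the highest library on both scales, while the lowest was E18.5 as deposited and P7 after scaling. The E16.5 library also held leukocyte transcripts, with all 8 listed leukocyte markers at 1 FPKM or more and Ptprc, the pan-leukocyte marker CD45, at 15.4 FPKM there, 0.536 in E18.5, 0.278 in P7 and 0.0983 in P28. The summed level of this list was nevertheless highest at P28, at 1166 FPKM in the E16.5 library, 52.5 in E18.5, 18.2 in P7 and 5065 in P28 (1016, 90.4, 13.2 and 4694 FPKM scaled). Lyz2, a lysozyme of macrophages that mouse alveolar type 2 cells also express, had 955, 40.5, 15.0 and 5062 FPKM of it by age, and was the 1 listed marker at 1 FPKM or more at P28. The part of these cells in the Notch2 level was not tested.

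Notch3, the receptor of smooth muscle and pericytes, was at 3.11 FPKM in the E16.5 library, 0.667 in E18.5, 4.33 in P7 and 0.569 in P28. It was high at E16.5 and P7 and low at E18.5 and P28, and kept that order after scaling (2.71, 1.15, 3.15 and 0.528 FPKM). The summed level of the 8 smooth muscle markers was 326 FPKM in the E16.5 library, 144 in E18.5, 518 in P7 and 31.4 in P28, with 7, 6, 8 and 4 of them at 1 FPKM or more. It was highest at P7 and lowest at P28 on both scales, but E16.5 and E18.5 were close after scaling (285, 247, 376 and 29.1 FPKM), and the median of the markers as deposited was 14.4 FPKM in the E18.5 library, against 12.8 in that of E16.5. The 12 pericyte markers summed to 58.7, 74.9, 222 and 51.1 FPKM in order of age (51.1, 129, 161 and 47.4 scaled), with 9, 10, 12 and 6 of them at 1 FPKM or more and none of either list at 0. The part of these cells in the Notch3 level was not tested.

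Notch4 was at 0.257 FPKM in the E16.5 library, 0.839 in E18.5, 9.01 in P7 and 2.01 in P28. The order P7, P28, E18.5 and E16.5, from highest to lowest, was the same after scaling (6.54, 1.87, 1.45 and 0.224 FPKM). Its highest library was 35.1 times its lowest as deposited and 29.2 times after scaling, a ratio that rests on a level below 1 FPKM at E16.5.

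The ligands were low before birth and all stood highest at P7. Jag1, the Jagged ligand of mural cells and many mesenchymal tissues, was at 1.40 FPKM in the E16.5 library, 0.966 in E18.5, 4.52 in P7 and 3.45 in P28, and did not reach 5 FPKM in any library. The scaled P7 and P28 values were 3.28 and 3.20 FPKM, closer to each other than to those of E16.5 (1.22) and E18.5 (1.66).

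Jag2, a second Jagged ligand that is known from epithelium and endothelium, was at 0.0610 FPKM in the E16.5 library, 0.224 in E18.5, 5.001 in P7 and 1.69 in P28. Dll4, the Delta-like ligand of arteries and sprouting tip cells, was at 0.0924 FPKM in the E16.5 library, 0.329 in E18.5, 8.38 in P7 and 2.07 in P28. Both rows had the same order of ages as Notch4, on either scale. The highest library was 81.9 times the lowest for Jag2 and 90.6 times for Dll4 (68.2 and 75.5 times after scaling), and both ratios rest on levels under 0.1 FPKM at E16.5. The scaled values at P7 were 3.63 FPKM for Jag2 and 6.08 for Dll4.

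The target repressors differed in direction across birth, on both scales: Hes1 was higher in both prenatal libraries, and Hey1 and Heyl in both postnatal ones. From P7 to P28 Hes1 and Hey1 were both lower. Hes1, a basic helix-loop-helix repressor that Notch and several other pathways induce, stood above the other members before birth, at 77.9 FPKM in the E16.5 library, 62.4 in E18.5, 33.3 in P7 and 13.3 in P28. It ranked 342nd of 23444 symbols by FPKM in the E16.5 library, 229th in E18.5, 1103rd in P7 and 2533rd in P28. The scaled values were 67.9, 108, 24.2 and 12.3 FPKM, so E18.5 was the highest library after scaling and E16.5 as deposited. P28 was the lowest on both.

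Hes1 also responds to signals that act within minutes. A list of 11 immediate early genes, chosen after the values were seen, summed to 1317 FPKM in the E16.5 library, 1232 in E18.5, 599 in P7 and 1180 in P28, with all 11 at 1 FPKM or more in each library. Its most abundant members did not share a course. From E16.5 to P28, Zfp36, which encodes an RNA-binding protein, had 324, 564, 61.2 and 189 FPKM. Dusp1 had 150, 149, 218 and 509 FPKM, and Egr1 had 384, 210, 109 and 124 FPKM, in the same order. The scaled sums were 1148, 2121, 435 and 1094 FPKM in order of age. The sum and Hes1 had the same highest library, E16.5 as deposited and E18.5 after scaling. On both scales the lowest library was P7 for the sum and P28 for Hes1. The part of a handling response in the Hes1 level was not tested.

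Hey1, a HEY repressor prominent in arterial endothelium and in mesenchyme, was at 8.37 FPKM in the E16.5 library, 2.40 in E18.5, 42.3 in P7 and 20.8 in P28. The ages kept their order after scaling (7.29, 4.13, 30.7 and 19.3 FPKM). Heyl, a relative of Hey1 that is expressed in vascular smooth muscle, was at 4.24 FPKM in the E16.5 library, 2.62 in E18.5, 16.6 in P7 and 20.9 in P28. It was the 1 member whose highest library was P28, on both scales (scaled values of 3.69, 4.51, 12.1 and 19.4 FPKM).

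**Figure D1:**
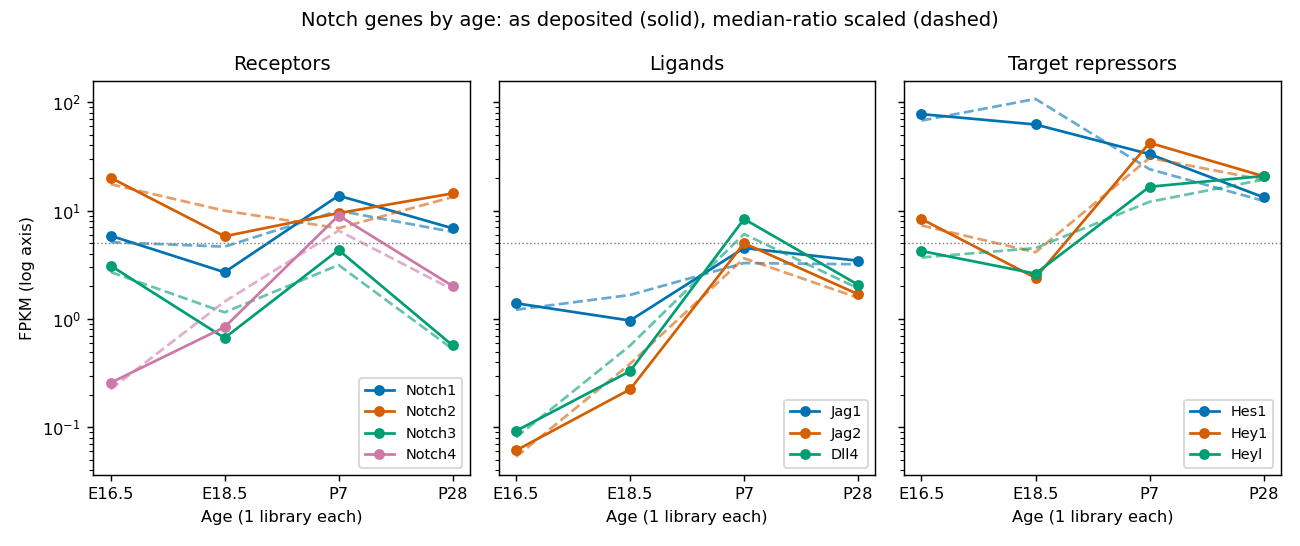
FPKM on a log axis by age for the receptors, ligands and target repressors. Points with solid lines are values as deposited, dashed lines are median-ratio scaled values, and the dotted line is the 5 FPKM minimum. As deposited, Notch4, Jag2 and Dll4 lie under 1 FPKM at both prenatal ages and at 9.01, 5.001 and 8.38 FPKM at P7, while Hes1 is lowest at P28 with 13.3 FPKM.

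Shares within a library do not depend on its scale, so they include E18.5 without correction. Of the summed FPKM of the 4 receptors, Notch2 made up 68.6% in the E16.5 library, 57.9% in E18.5, 25.9% in P7 and 60.4% in P28. Notch4 made up 0.874%, 8.39%, 24.6% and 8.44% in order of age, and Notch1 19.97%, 27.0%, 37.6% and 28.8%. Notch3 made up 10.6%, 6.67%, 11.8% and 2.38%. The shares of Notch1, Notch2 and Notch4 at P28 were each within 3 percentage points of those at E18.5, whereas that of Notch3 was 2.38% at P28 and 6.67% at E18.5, and P7 was the library without a majority receptor.

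Of the ligand sum, Jag1 made up 90.1% in the E16.5 library, 63.6% in E18.5, 25.2% in P7 and 47.8% in P28. Dll4 made up 5.97%, 21.7%, 46.8% and 28.7%, and was the leading ligand at P7. The ligand sum itself was 1.55 FPKM in the E16.5 library, 1.52 in E18.5, 17.9 in P7 and 7.21 in P28 (1.35, 2.62, 13.0 and 6.68 scaled), so prenatal shares rest on low levels. The receptor sum was 29.4, 10.002 (17.2 scaled), 36.6 and 23.9 FPKM in order of age.

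Of the target sum, Hes1 made up 86.1% in the E16.5 library, 92.6% in E18.5, 36.1% in P7 and 24.2% in P28. Hey1 made up 9.25%, 3.55%, 45.9% and 37.8%, and Heyl 4.68%, 3.88%, 18.0% and 38.0%. The prenatal libraries were dominated by Hes1 and the postnatal ones by the HEY genes together.

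**Figure D2:**
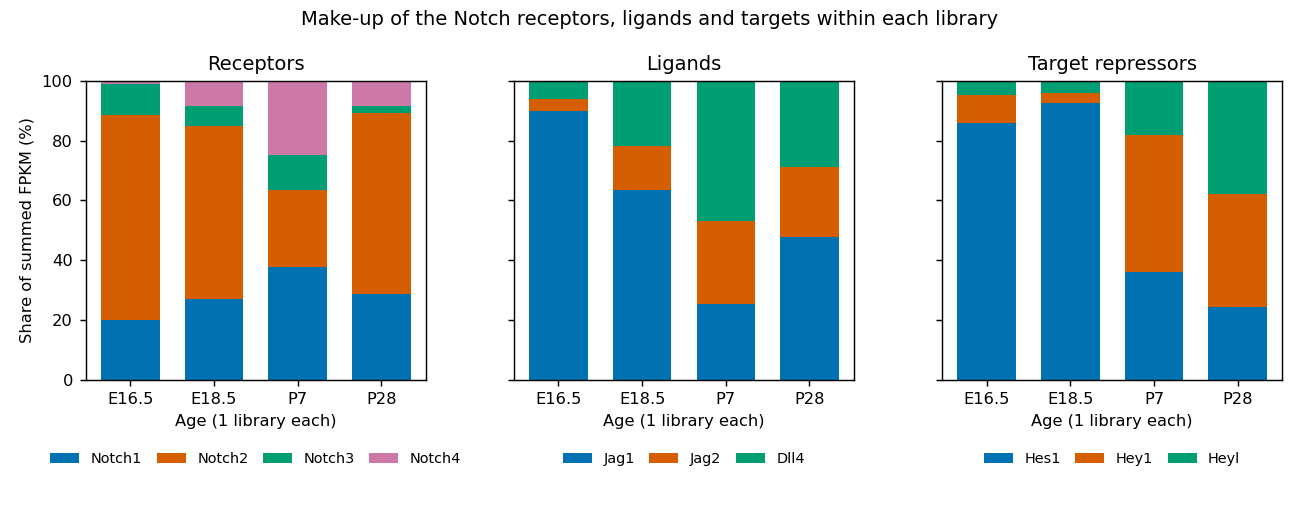
Share of each gene in the summed FPKM of the 4 receptors, the 3 ligands and the 3 targets within each library, in percent, by age. Hes1 takes 86.1% and 92.6% of the target sum before birth, and Notch2 takes over 50% of the receptor sum at each age but P7.

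Differences between libraries were taken as log2(FPKM + 1), a scale that understates the change of low genes. A gene counted as higher or lower if this difference was at least 1 (2-fold) and the larger value was at least 5 FPKM. The share of all genes with such a value that were counted the same way is given as the background. The minimum can be met by 1 of the 2 libraries alone, so some genes enter a count only through the library where they are high.

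The comparison of E18.5 with E16.5 covers the end of gestation. No member was counted as different once the libraries were scaled. Of the 10 members 4 reached 5 FPKM in either library, and 0 were counted as higher, against 2.32% of 5979 genes. Notch2 and Hey1 were counted as lower, with differences of -1.64 and -1.46, against 47.4% of genes. After scaling 0 members were higher and 0 lower, with backgrounds of 9.34% and 12.2% of 6036 genes. The scaled differences were -0.76 for Notch2, -0.69 for Hey1 and 0.66 for Hes1. The sign turned with scaling for Hes1 (-0.31 as deposited), Jag1 (-0.28 and 0.27 scaled) and Heyl (-0.53 and 0.23 scaled). The median difference of the 4 members was -1.18, beside -0.96 for all genes (-0.40 and -0.016 scaled). Over all 10 members it was -0.42 (0.25 scaled).

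P7 was compared with E18.5 to span birth. Hey1, Dll4, Notch4 and Heyl were higher at P7 on both scales, and Hes1 was lower, past the threshold after scaling. As deposited, 6 of 8 members that reached 5 FPKM were higher and 0 were lower, against backgrounds of 63.3% and 2.89% of 6604 genes, so the count of higher members is not far from the background. After scaling 4 of 7 were higher and 1 lower, against 14.7% and 12% of 6130 genes. On either scale each higher member reached 5 FPKM at P7 only. Hey1 was at 42.3 FPKM at P7 and 2.40 at E18.5, a log2 difference of 3.67 (2.63 scaled), which ranked 119th from the top of 6604 genes. Dll4 differed by 2.82 (2.18 scaled), Notch4 by 2.44 (1.63 scaled) and Heyl by 2.28 (1.25 scaled).

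Hes1 was at 33.3 FPKM at P7 and 62.4 at E18.5, a difference of -0.89 as deposited and -2.11 scaled. It ranked 207th from the bottom of 6604 genes as deposited and 226th of 6130 after scaling. Notch1 (1.996) and Jag2 (2.29) were counted as higher as deposited only. After scaling Notch1 differed by 0.96, and Jag2 by 1.74 with its P7 value of 3.63 FPKM under the minimum. Jag2 had passed the minimum as deposited at 5.001 FPKM. For Notch2 the sign turned with scaling (0.63 as deposited and -0.48 scaled). The median difference of the members that reached 5 FPKM was 2.29, beside 1.23 for all genes (1.25 and 0.05 scaled). Over all 10 members it was 2.14 (1.10 scaled).

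P7 against E16.5 leaves the E18.5 library out of the comparison. Dll4, Notch4, Hey1 and Heyl were higher at P7 and Hes1 and Notch2 were lower, on both scales. As deposited, 6 of 8 members reaching 5 FPKM were higher and 2 lower, against 15.7% and 6.68% of 7055 genes. Of the higher ones, Notch4, Jag2, Dll4 and Heyl reached 5 FPKM at P7 only. After scaling 4 of 7 were higher and 2 lower, against 12.3% and 9.62% of 6164 genes. Dll4 was at 8.38 FPKM at P7 and 0.0924 at E16.5, a difference of 3.10 (2.71 scaled) that ranked 153rd from the top, and Notch4 differed by 2.99 (2.62 scaled) and ranked 167th. Hey1 differed by 2.21 (1.93 scaled) and Heyl by 1.75 (1.48 scaled).

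On the lower side, Hes1 differed by -1.20 (-1.45 scaled) and Notch2 by -1.01 (-1.24 scaled). Notch2 was at 9.48 FPKM at P7 and 20.1 at E16.5, just past 2-fold as deposited. Jag2 (2.50) and Notch1 (1.10) were counted as higher as deposited and not after scaling, where they differed by 2.14 and 0.85. Jag1, at 4.52 FPKM at P7 and 1.40 at E16.5, differed by 1.20 but did not reach the minimum. The median difference of the members that reached 5 FPKM was 1.98, beside 0.23 for all genes (1.48 and -0.038 scaled). Over all 10 members it was 1.48 (1.21 scaled).

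The comparison of P28 with P7 covers the weeks in which alveolar formation ends. Notch4 and Dll4 were lower at P28 on both scales, and Heyl and Notch2 had values above those of P7 that did not reach 2-fold. As deposited, 0 of 8 members reaching 5 FPKM were higher and 4 lower, against 10.5% and 16.9% of 7133 genes. Of the lower ones, Notch4, Jag2 and Dll4 reached 5 FPKM at P7 only. After scaling 0 of 7 were higher and 2 lower, against 14.6% and 10.3% of 6374 genes. Notch4 was at 2.01 FPKM at P28 and 9.01 at P7, a difference of -1.73 (-1.40 scaled), and Dll4 differed by -1.61 (-1.28 scaled). Hes1 (-1.26) and Jag2 (-1.16) were counted as lower as deposited, with scaled differences of -0.92 and -0.85. Notch3, at 0.569 FPKM at P28 and 4.33 at P7, differed by -1.76 (-1.44 scaled) without reaching the minimum. Heyl differed by 0.31 (0.64 scaled) and Notch2 by 0.56 (0.87 scaled). The median over members reaching the minimum was -1.07, beside -0.36 for all genes (-0.64 and -0.0056 scaled). Over all 10 members it was -1.07 (-0.75 scaled).

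P28 against E16.5 sets the ends of the course side by side. Heyl and Hey1 were higher at P28 and Hes1 was lower, on both scales. Of 5 members reaching 5 FPKM, 2 were higher and 1 lower on either scale, against 18% and 16.9% of 7073 genes as deposited and 19.7% and 15% of 6656 genes after scaling. Hes1 was at 13.3 FPKM at P28 and 77.9 at E16.5, a difference of -2.46 (-2.37 scaled) that ranked 352nd from the bottom of 7073 genes. Heyl was at 20.9 FPKM at P28 and 4.24 at E16.5, a difference of 2.06 (2.12 scaled), and reached 5 FPKM at P28 only. Hey1 differed by 1.22 (1.29 scaled). Notch1 differed by 0.20 (0.27 scaled). Notch4, Jag2 and Dll4 differed by 1.26, 1.34 and 1.49, and none of them reached 5 FPKM in these libraries.

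**Figure D3:**
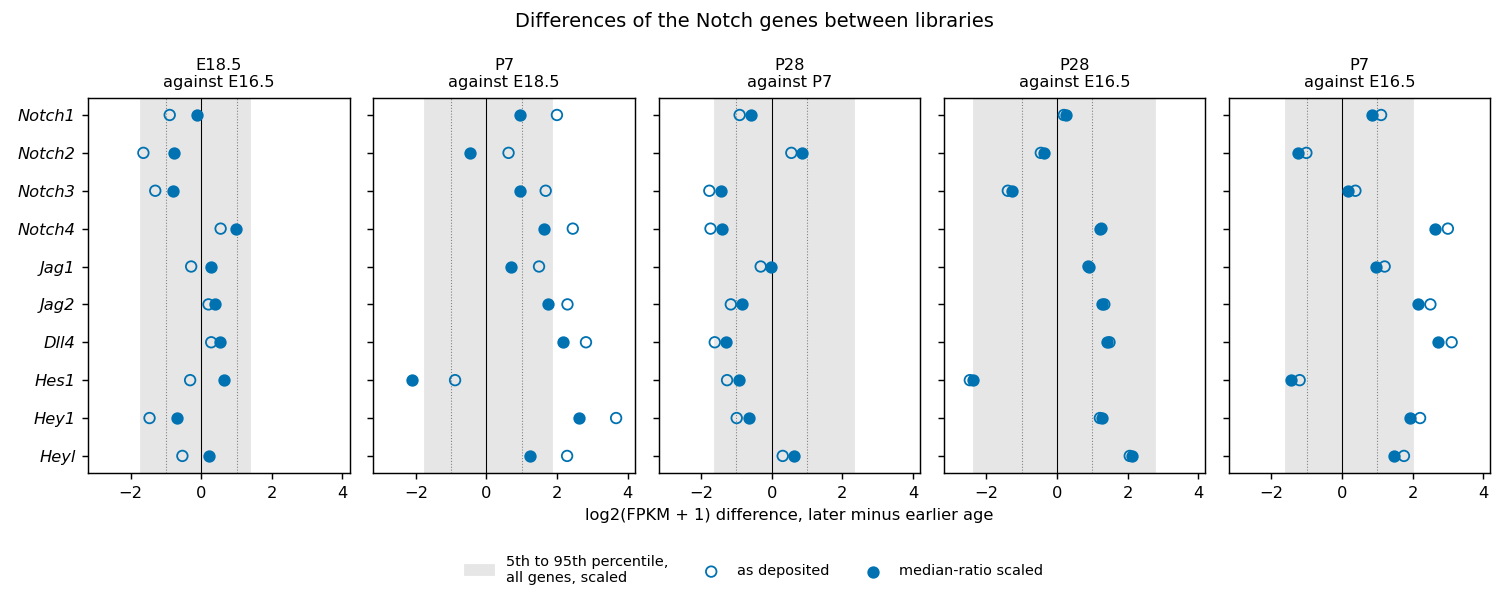
Difference in log2(FPKM + 1), later minus earlier age, for the 10 genes in the 5 comparisons. Open circles are values as deposited and filled circles median-ratio scaled values, the dotted lines are at 2-fold, and the grey band spans the 5th to 95th percentile of scaled differences of all genes that passed the 5 FPKM minimum. Hey1 and Dll4 lie right of the band at P7 against E18.5 and Hes1 left of it (2.63, 2.18 and -2.11 scaled).

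The summed levels of endothelial markers stood highest at P7 and next highest at P28, as did Notch1, Notch4, Jag1, Jag2, Dll4 and Hey1. The summed level of 17 endothelial markers, none of them a member, was 56.1 FPKM in the E16.5 library, 61.8 in E18.5, 1534 in P7 and 375 in P28, and 11, 14, 17 and 17 of them were at 1 FPKM or more, with none listed at 0. The scaled sums were 48.9, 106, 1113 and 348 FPKM in order of age. Cdh5, vascular endothelial cadherin, had 4.999, 5.79, 276 and 67.3 FPKM by age, from E16.5 to P28. The 6 arterial markers summed to 10.8, 7.22, 120 and 35.7 FPKM. Of the 4 lymphatic markers, Ccl21a was listed at 0 in every library, and their sum was 8.32, 8.25, 172 and 36.2 FPKM. The part of endothelial RNA in the levels of the members was not tested.

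Set against this list, the level of Dll4 per 100 FPKM of summed endothelial markers was 0.165 in the E16.5 library, 0.533 in E18.5, 0.546 in P7 and 0.551 in P28. The last 3 libraries were within 0.533 to 0.551, while Dll4 itself ranged from 0.329 to 8.38 FPKM in them. The E18.5 ratio rests on the level of 0.329 FPKM, whose precision is unknown. No ratio to the arterial markers alone was taken, so the closeness holds for this list only. For Notch4 the ratio to the endothelial list was 0.458, 1.36, 0.588 and 0.537 in order of age, and for Jag2 it was 0.109, 0.362, 0.326 and 0.451. For Dll4 and Jag2, as for Notch4, the ratio was lowest at E16.5, whereas for each other member it was highest there. It was 10.5, 4.37, 0.897 and 1.83 for Notch1 in order of age. Notch3 had 5.55, 1.08, 0.283 and 0.152, and Jag1 had 2.49, 1.56, 0.295 and 0.919. For Notch2 it was 35.9, 9.38, 0.618 and 3.84, for Hes1 139, 101, 2.17 and 3.54, for Hey1 14.9, 3.88, 2.76 and 5.54, and for Heyl 7.56, 4.24, 1.08 and 5.57. Notch1, Notch2, Jag1, Hes1, Hey1 and Heyl had their lowest ratio at P7, where the endothelial sum was highest, and Notch3 at P28. A gene that rises less than this sum towards P7 gets a lower ratio there by construction. The part of endothelial RNA in these levels was not tested.

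A second ratio was taken to Pdgfra, the gene of the sort. Notch2 per 100 FPKM of Pdgfra was 22.7 in the E16.5 library, 6.04 in E18.5, 8.40 in P7 and 7.68 in P28, so that the last 3 libraries ranged from 6.04 to 8.40. Hey1 was at 9.43, 2.50, 37.4 and 11.1 by the same measure, and Heyl at 4.78, 2.73, 14.7 and 11.1. Hes1 was lower at each successive age, at 87.8, 65.1, 29.5 and 7.08. The P28 library also held epithelial transcripts, with the airway and alveolar marker lists making up 14.2% of summed FPKM, against 0.0206% at E16.5, 0.148% at E18.5 and 0.0309% at P7. When each library was divided by its remaining share, the members counted at P28 against P7 and against E16.5 were the same genes as deposited. This changes the scale of a library and takes no epithelial RNA out of the value of a member. The part of epithelial RNA in the levels of the members was not tested.

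**Figure D4:**
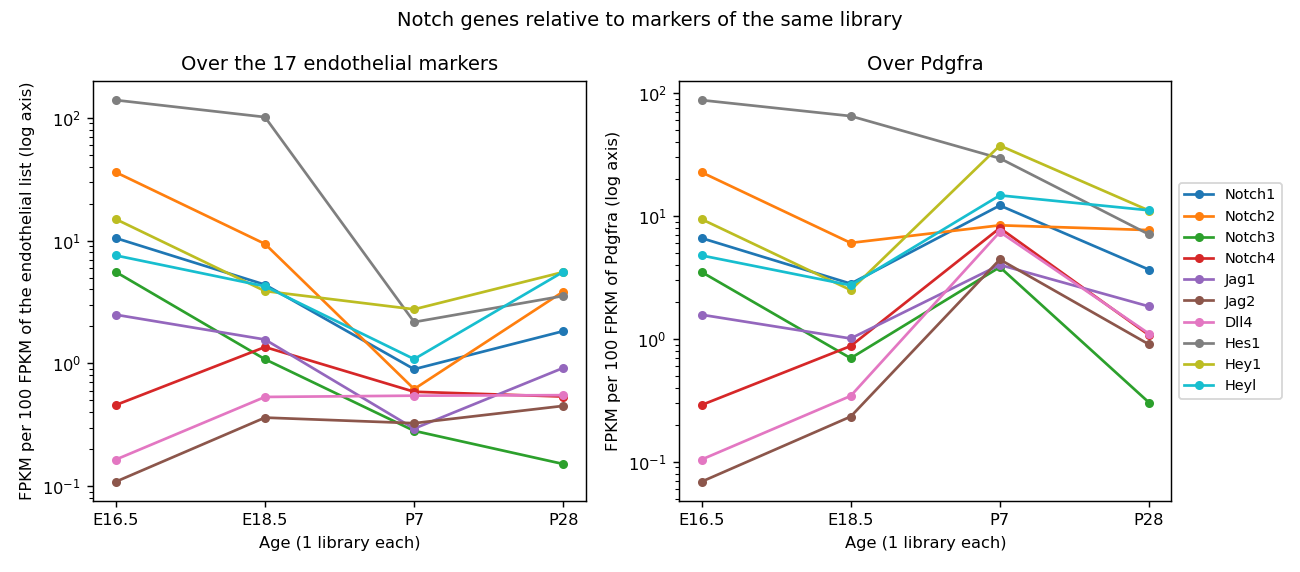
FPKM of each of the 10 genes per 100 FPKM of the 17 summed endothelial markers and per 100 FPKM of Pdgfra, on log axes, by age. On the endothelial scale Dll4 lies level from E18.5 to P28 (0.533, 0.546 and 0.551), while Hes1 is at 2.17 at P7, against 139 at E16.5. The E18.5 ratio of Dll4 rests on a level of 0.329 FPKM.

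Beyond the 10 members, 55 other genes of the pathway were examined, of which 29 had 5 FPKM or more at some age. Few of them were counted as different once the libraries were scaled, and Mfng and Nrarp had the largest counted differences. Dll3, Hes3, Hes5 and Hes7 were listed at 0 in every library, although a 0 in this table may also mark a failed estimate. The DNA-binding partner Rbpj was at 16.4 FPKM in the E16.5 library, 8.37 in E18.5, 14.9 in P7 and 8.37 in P28.

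At P7 against E18.5, 17 of the 29 that reached 5 FPKM there were higher and 0 lower as deposited, and 3 of 30 were higher and 0 lower after scaling, namely Mfng, Numb and Nrarp, with the same backgrounds as for the members (63.3% and 14.7% higher). Their median difference was 1.10, beside 1.23 for all genes. Mfng, the fringe glycosyltransferase that alters how receptors respond to Delta-like and Jagged ligands, was at 1.22 FPKM in the E16.5 library, 0.304 in E18.5, 20.8 in P7 and 3.35 in P28. Nrarp, a direct Notch target that dampens the pathway, had 0.736, 0.0391, 9.58 and 0.873 FPKM at the same ages. Their differences at P7 against E18.5 were 4.06 for Mfng (3.40 scaled) and 3.35 for Nrarp (2.90 scaled). Numb, an endocytic adaptor that inhibits Notch, was at 13.4 FPKM at P7 and 2.47 at E18.5 (2.05, or 1.03 scaled).

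At P7 against E16.5, 5 of 29 were higher and 0 lower (4 and 0 of 28 after scaling). The background was 15.7% higher and 6.68% lower (12.3% and 9.62% scaled), so the count of higher genes is near it. Aph1a, a gamma-secretase subunit, was at 10.3 FPKM at P7 and 3.15 at E16.5. The acetyltransferase Kat2b was at 7.49 FPKM at P7 and 2.69 at E16.5, a difference of 1.20 (0.94 scaled). At P28 against P7, 0 of 29 were higher and 5 lower (0 and 3 of 28 after scaling), against backgrounds of 10.5% higher and 16.9% lower (14.6% and 10.3% scaled), so the count of lower genes is also near the background. Among them were Mfng (-2.32, or -1.97 scaled), Nrarp (-2.50, or -2.14 scaled) and Aph1a (-1.52, or -1.19 scaled). Fbxw7, which marks the intracellular receptor for degradation, differed by -1.09 (-0.76 scaled). At E18.5 against E16.5, 0 of 21 were higher and 5 lower, against 2.32% and 47.4% of all genes, and after scaling 0 of 25 were higher and 0 lower, against 9.34% and 12.2%. At P28 against E16.5 Kat2b alone was higher on both scales (1.10, or 1.14 scaled), 1 of 25 as deposited and 1 of 24 after scaling, against 18% and 19.7%, and 0 were lower, against 16.9% and 15%.

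The most abundant genes of these lists were the gamma-secretase subunit Psenen, at 84.1 FPKM in the E16.5 library, 38.7 in E18.5, 73.6 in P7 and 114 in P28, and the coactivator Crebbp, at 32.4, 20.2, 38.5 and 31.1 FPKM. Itch, a ubiquitin ligase, was at 17.4, 8.59, 21.8 and 16.8 FPKM, and Poglut1, which adds glucose to the receptors, at 7.99, 5.86, 10.04 and 8.46 FPKM. Ncstn, the gamma-secretase subunit that receives substrates, was at 18.1, 8.65, 31.8 and 22.4 FPKM, and the corepressor Tle3 at 6.78, 2.48, 9.62 and 5.46 FPKM. Dlk1, a ligand-like protein of fetal tissues, was at 4.97, 2.37, 0.275 and 0.0235 FPKM, and Hes6, a HES relative, at 0.936, 1.44, 0.975 and 1.91 FPKM. Of the pathway genes named, Dlk1 was lower at each successive age as deposited, like Hes1, but stayed under 5 FPKM.

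**Figure D5:**
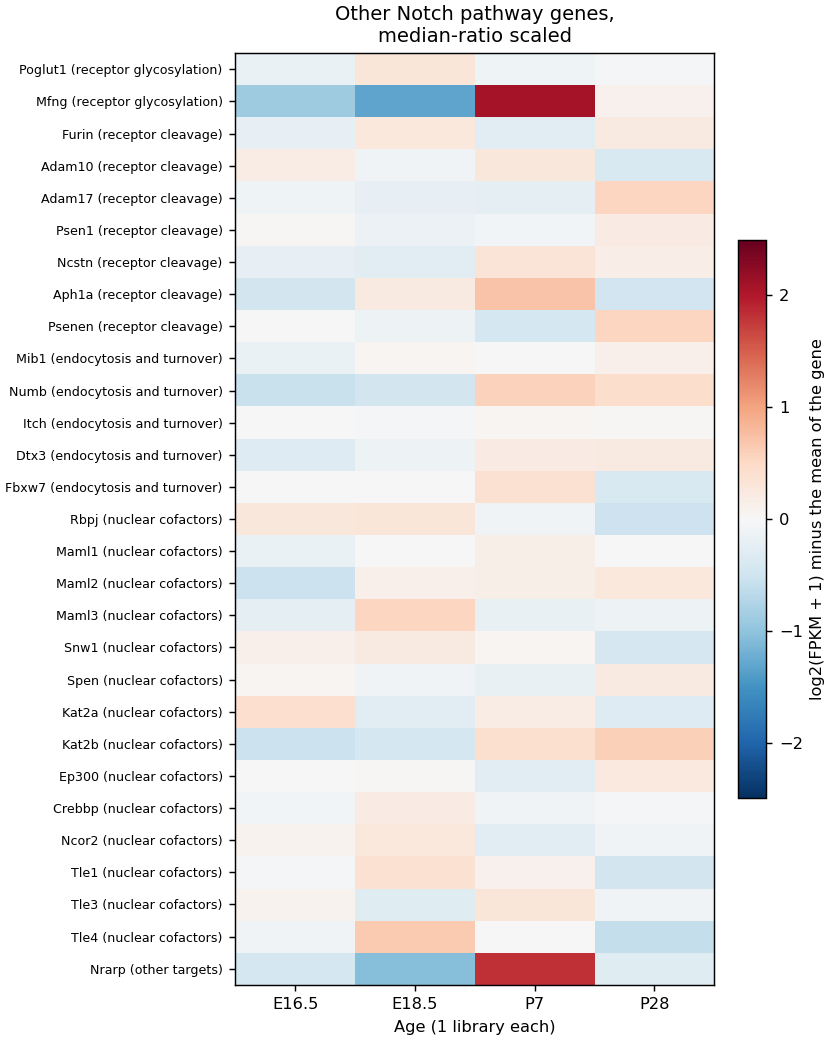
Scaled log2(FPKM + 1) minus the mean of the gene over the 4 ages, for the 29 other pathway genes that reached 5 FPKM as deposited, by list. Mfng and Nrarp show the strongest colours, with P7 above the other ages (20.8 and 9.58 FPKM as deposited).

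Likeness of course was measured on deposited values, as the Euclidean distance between log2(FPKM + 1) profiles over the 4 libraries, each centred on its own mean. The 8 members at 5 FPKM or more in some library could be compared with 7414 genes. Among the members themselves the smallest distances were 0.365 between Dll4 and Notch4, 0.468 between Dll4 and Jag2 and 0.475 between Jag2 and Notch4. Hey1 and Heyl were 1.16 apart. The 3 genes nearest to Dll4 were Abcb1a, a drug efflux pump (0.0560), Wscd1 (0.205) and Fzd6, a Frizzled receptor (0.208). Nearest to Notch4 were Eng, endoglin, which is on the endothelial list (0.149), Cyth3 (0.225) and Ntng2 (0.226). Nearest to Jag2 were Ablim1 (0.0388), Rhoj (0.145) and Aoc3 (0.148).

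Nearest to Notch1 were Sike1 (0.0406), Dennd5a (0.0776) and Gcc2 (0.109), and nearest to Notch2 were the netrin receptor Unc5c (0.118), Glrx5 (0.196) and the endothelin receptor Ednra (0.211). Hes1 had Cacna1g, a calcium channel subunit (0.10), the ribosomal protein gene Rpsa (0.345) and thrombospondin 1, Thbs1 (0.361). Hey1 had Lrrc8c (0.266), Arhgef3 (0.326) and Eogt, an O-GlcNAc transferase of extracellular EGF repeats (0.331). Heyl had Slc23a2, a vitamin C transporter (0.0500), Pde8a (0.0915) and Tmem140 (0.160). After scaling Jag2 fell under 5 FPKM and was not compared. Among the genes named for the other members, Ntng2 then ranked 16th for Notch4 and Pde8a 12th for Heyl. The rest ranked 6th or nearer. With 4 libraries such a ranking describes these profiles only.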

How the data were processed

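Per the labels' protocols, a QIAamp kit was used for RNA extraction, and sequencing libraries were prepared with Nextera XT for paired-end reads. TopHat and TopHat2 2.0.9 and the builds GRCm38 and mm10 are named in the submitters' processing notes. The deposited values are FPKM calculated by the authors for 23931 entries, whose program the sources used here do not name.

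Entries sharing a symbol were summed. Differences were taken as log2(FPKM + 1) and counted at 2-fold if the larger value was at least 5 FPKM. No test was possible, as each age has 1 library. Median-ratio factors came from the 7930 genes that reached 1 FPKM everywhere. The code was tested on simulated data. Other genes were named by rule: the most abundant gene of each pathway list, up to 2 with the largest counted difference, the 3 nearest profiles per member, and the leading cell type markers. Rbpj, Dll3, Hes3, Hes5, Hes7, Ptprc, Ccl21a, Gm14207, Zfp36, Dusp1 and Egr1 are outside it, or were chosen after values were seen. The members and lists were chosen with earlier results of these data known. Alternatives were upper-quartile scaling, a 4-fold threshold, a minimum of 0 or 20 FPKM, and pseudocounts of 0.1 and 5. Scaling without E18.5 and without epithelial markers was added after seeing the data. Promoters are from RefSeq on GRCm38.p6, with 7 of 10 members matched. Python 3.11.15, numpy 2.4.6, pandas 2.3.3 and matplotlib 3.10.9 were used.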

Additional observations from a re-analysis of the deposited data

How the results depend on the processing

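No called difference of a member turned its sign under median-ratio or upper-quartile scaling. Another pseudocount, minimum or threshold cannot turn a sign, by construction. Of 200 recomputed member differences 171 kept their call and 29 changed it, and 8 uncalled ones changed sign, 4 under each scaling. The highest library was the same for 9 of 10 members under either scaling, with Hes1 the exception, and the lowest for 7 of 10. Of 92 recomputed counts 68 stayed within 1.5 times. At E18.5 against E16.5 the 2 lower members became 0 with median-ratio or upper-quartile scaling and at 4-fold, and 1 with a pseudocount of 5 or a minimum of 20 FPKM. At P7 against E18.5 the 0 lower members became 1 under either scaling, and the 6 higher ones 1 at 20 FPKM. At P28 against P7 the 4 lower members became 2 under median-ratio scaling, with or without E18.5, and under upper-quartile scaling, 1 with a pseudocount of 5 or a minimum of 20 FPKM, and 0 at 4-fold. At P28 against E16.5 the 2 higher members became 1 with a pseudocount of 5 or at 4-fold and 5 with no minimum, which also made the 1 lower member 2. At P7 against E16.5 the 2 lower members became 1 with a pseudocount of 5 and 0 at 4-fold, and the 6 higher ones 1 at 20 FPKM. Of the other pathway genes, median-ratio scaling made the 5 lower at E18.5 against E16.5 0, the 17 higher at P7 against E18.5 3, and the 5 lower at P28 against P7 3. A stricter minimum or threshold leaves fewer genes to count by construction, and the cause of the other changes was not tested. No paired analysis was possible because each age has 1 library. Depth is unknown, so the error of the low prenatal levels of Notch4, Jag2 and Dll4 cannot be given.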
